A study of Mus musculus with 20 samples.

Results

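Liver messenger RNA levels, measured by sequencing, were compared between mice fed a methionine- and choline-deficient (MCD) diet and mice fed regular chow, all of which received an IgG isotype control antibody. The comparison takes 10 of the 20 samples of the series: 5 labelled MCD diet with IgG and 5 labelled chow with IgG. All mice were C57BL/6. The chow group ate Safe A04 diet and is labelled healthy, and the MCD group ate Safe AIN-76 diet and is labelled with NASH, non-alcoholic steatohepatitis. Every animal of both groups was given the control IgG (Bioxcell BE0085), so no group without an injected antibody is part of the comparison. The remaining samples, on the same diets, received an antibody that neutralises ACBP, the acyl-CoA binding protein encoded by Dbi. The labels state neither sex, age, body weight nor the time spent on the diet.

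The MCD diet withholds methionine, the precursor of the methyl donor S-adenosylmethionine, and choline, the precursor of phosphatidylcholine. Without phosphatidylcholine hepatocytes export less triglyceride in very-low-density lipoprotein (VLDL), and the liver accumulates fat, then inflammation and fibrosis. The diet is also known to make mice lose weight, which limits it as a model of the human disease that accompanies obesity.

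The authors deposited 1 table per diet with a mean normalized count (reads divided by a size factor) per group, so each level below is the authors' group mean and no level of a single mouse was used. Genes seen in 1 read of 1 library fall on a few exact mean values, and these showed 5 libraries behind the MCD IgG mean and 4 behind the chow IgG mean, where the labels list 5. Which mice stand behind the chow mean is not known here. The MCD IgG column summed to 34621779 and the chow IgG column to 38600264 normalized counts. Both tables were scaled separately, so the comparison is one of levels and carries no test or p-value. Whether these means come from mice handled together is not stated, and any difference between the 2 tables that is not diet cannot be told apart from diet. The log2 ratio of MCD IgG over chow IgG was centred by subtracting 0.24, the median of the 8956 genes with at least 5 CPM in both columns (CPM: normalized counts scaled to a column total of 1000000), and means under 3 normalized counts were set to 3. A standard error (SE) was derived for each ratio from the SEs that the authors' deposited tables give for the antibody comparison within each diet; it describes counting error and spread between libraries of a table and not the error of joining both tables. Its median was 0.12 on the log2 scale over the 10463 genes at 5 CPM in at least 1 column, out of 54325 in both tables.

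Of these 10463 genes, 1135 (10.8%) were higher on MCD by a log2 ratio of 1 or more and 467 (4.46%) were lower by 1 or more. These shares are the background for counts of list members among these 10463 genes. Counts that also cover members outside them have no matching share over all genes and are a description. Of the higher genes 383 also reached 5 CPM on both diets; the others passed the filter on MCD alone. The filter stands at 173 normalized counts on MCD and 193 on chow, so a gene below 193 on chow enters only where it reaches 173 on MCD. For most lists with many such genes the counts below therefore cover every listed member, the filter aside. Other counts are of members at the filter, some of which passed it on MCD alone. Such a count is a description and supports nothing. A lower gene within 0.39 of the threshold is no longer past it under scaling to column totals. Higher by 3 or more were 135 genes, and lower by 3 or more were 60. Of the higher genes 1129, and of the lower genes 465, were also at least 2 derived SEs from 0. The 90th percentile of the derived SE was 0.23, so a ratio past 1 nearly always meets this, and these counts add no support. Protein-coding genes made up 10112 of the genes at the filter, of which 1095 were higher and 390 lower; of 199 long non-coding RNAs 23 were higher and 47 lower. Under scaling to column totals every ratio moves up by 0.39, and the split becomes 1945 higher and 268 lower; without centring it moves up by 0.24 and the split becomes 1539 and 321. Directions below are relative to the median gene. Near the threshold, Fgfr1 stood at 1.001 just inside and Wfdc1 and Pparg at 0.998 and 0.999 just outside. On the lower side, Paox was just inside at -1.001 and Rtp3 just outside at -0.998.

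**Figure D1:**
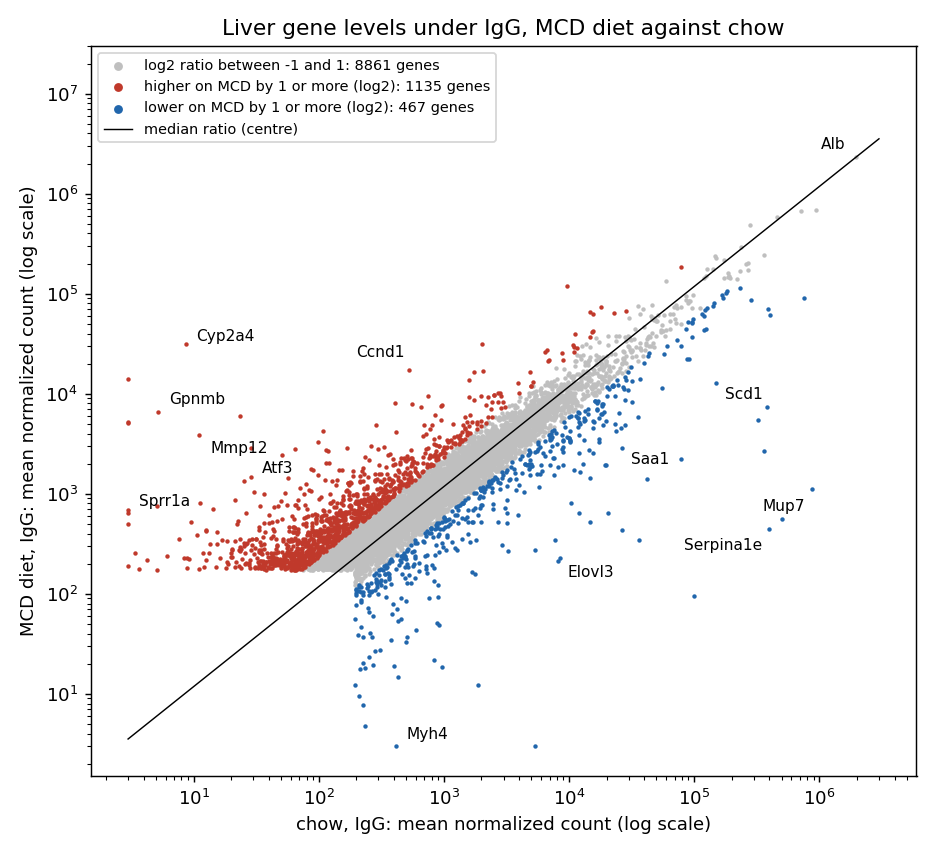
Mean normalized count per gene in MCD IgG livers against chow IgG livers, both axes logarithmic, for the 10463 genes at the level filter, with means under 3 drawn at 3. Red points (1135) lie above the median line by a log2 ratio of 1 or more and blue points (467) below it by as much; Cyp2a4 stands far above and Mup7 and Serpina1e far below.

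The genes with the widest gaps between the diets included many whose liver expression differs between the sexes. Male mice release growth hormone in pulses, and STAT5b then keeps a male set of hepatocyte genes on; the repressor Bcl6 holds female genes down in male liver, and Cux2 holds male genes down in female liver. All 17 members of the male-biased list were at the filter, and all were lower by 1 or more, against 4.46% of all genes. Their median log2 ratio was -5.06, with a range from -10.04 to -2.45. Of 16 female-biased genes 8 were at the filter, and all of these were higher by 1 or more, against 10.8% over all genes; a gene that is nearly silent on chow reaches the filter only by being high on MCD, so this count has no weight of its own. Members of both lists were chosen with earlier results of these data known.

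Mup7, a major urinary protein (a secreted pheromone carrier made by male liver), averaged 1114 normalized counts in MCD IgG and 874356 in chow IgG, a log2 ratio of -9.85 ± 0.60 (derived SE). Serpina1e, an alpha-1-antitrypsin paralog, averaged 449 against 399981 (-10.04 ± 0.26). Elovl3, a fatty acid elongase, averaged 212 against 8238 (-5.52 ± 0.48). Serpina1e belongs to a cluster of near-identical copies, so its own value is uncertain. Selenbp2 (-5.14), the steroid dehydrogenase Hsd3b5 (-5.45), the arachidonic acid hydroxylase Cyp4a12a (-5.06) and the oxysterol hydroxylase Cyp7b1 (-3.90) were lower as well. The smallest gaps of the list were those of Nudt7 (-2.45), a peroxisomal coenzyme A hydrolase, and Cyp2d9 (-2.52).

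In the other direction, Cyp2a4, a steroid hydroxylase of female liver, averaged 31311 in MCD IgG and 8.67 in chow IgG (11.58 ± 0.77). Cyp2b9 averaged 5213 against 0.82, and the estrogen sulfotransferase Sult1e1 5152 against 0.55. These genes were near absent on chow and abundant on MCD. The androgen-producing enzyme Cyp17a1 (3.08) and the transcription factor Tox (1.84) were already detected on chow. Below the filter, Cyp2b13 averaged 121 on MCD and 0 on chow, at least 5.10 higher on the log2 scale against the floor, while Cyp3a16, Cyp3a41b and Sult3a1 stayed under 1 normalized count in both groups.

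Genes of the growth hormone axis pointed both ways. The male-pattern repressor Bcl6 averaged 304 against 2914 (-3.50 ± 0.42), and the female-pattern repressor Cux2 344 against 16.9 (4.11 ± 0.72). The receptor Ghr stood at -1.47 ± 0.11, its target Igf1 at -0.86 ± 0.13 and Stat5b at -0.64 ± 0.10. Igfbp1, which binds IGF1 and is raised by fasting, averaged 16494 against 1755 (2.99 ± 0.54), and Socs2, a feedback inhibitor induced by STAT5, was higher at 1.51 ± 0.56. Of 13 listed genes of the axis 3 were higher (23.1%) and 2 lower (15.4%) by 1 or more, against 10.8% and 4.46% of all genes. Cux2 is not among these 13 and passed the filter on MCD alone. The Y-linked genes Ddx3y (-0.077), Uty (-0.23), Kdm5d (-0.39) and Eif2s3y (-0.51) were expressed in both groups, with 1719.8 and 1538 normalized counts for Ddx3y, and Xist averaged 9.55 and 9.17.

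**Figure D2:**
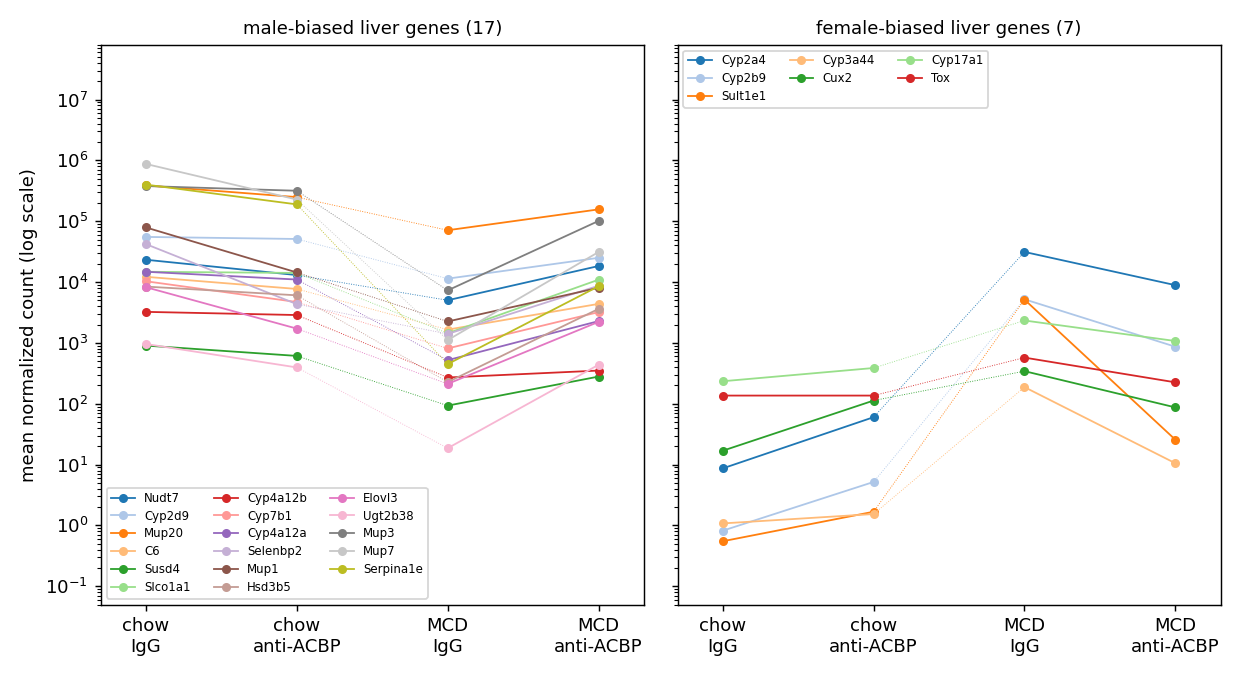
Mean normalized count (log scale) of male-biased (left) and female-biased (right) genes at the level filter in the 4 groups, 1 line per gene; dotted stretches join values from separately scaled tables. Each male-biased gene shown is lowest in MCD IgG, and each female-biased gene shown is highest there.

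Predicted genes and pseudogenes aside, the 12 highest genes held Cyp2a4, Cyp2b9 and Sult1e1 of the female-biased list and Cyp2a22 (7.73), a cytochrome of the same subfamily as Cyp2a4. Gpnmb, a lysosomal glycoprotein of lipid-loaded macrophages, averaged 6629 against 5.24 (10.07 ± 0.57), and the macrophage elastase Mmp12 3881 against 11.1 (8.21 ± 0.42). Sprr1a, a cornified envelope protein seen in injured epithelium, averaged 642 against 0.26, and its derived SE of 2.54 was the widest of the 12. In bulk tissue, more cells of a type and more RNA per cell cannot be told apart, here and for every cell type marker below. Also among them were Slc22a27 (6.97), an organic anion transporter, Ly6d (6.38), the trypsin inhibitor Spink1 (5.98) and the vomeronasal receptor Vmn2r3 (5.94).

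The 12 lowest genes included 9 major urinary protein genes: Mup17 (-10.28), Mup19 (-10.03), Mup7, Mup15 (-7.50), Mup14 (-7.32), Mup16 (-6.98), Mup9 (-6.18), Mup11 (-6.12) and Mup3 (-5.93). All 19 Mup genes at the filter were lower by 1 or more. Together the Mup genes made up 10.1% of the chow IgG column and 0.552% of the MCD IgG column. These genes are near-identical copies whose reads the counting could split, so single Mup values are uncertain. The remaining ones were Serpina1e, the glucuronosyltransferase Ugt2b38 (-5.93) and Myh4, a fast skeletal muscle myosin at 1.14 against 413. Myh4 stood with other muscle genes in the chow IgG column alone: Ckm averaged 269.5 there, 19.4 in MCD IgG and 12.2 in chow anti-ACBP, and Acta1 236, 18.3 and 14.1. Summed over the 5 muscle markers the level was 1080 normalized counts in chow IgG and between 73.3 and 90.9 in the other groups, and its part in the Myh4 ratio was not tested. The derived SE of Myh4 was 2.95.

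Fibrosis genes were higher on MCD. Over all 28 extracellular matrix genes, the filter aside, 24 were higher and 0 lower by 1 or more, with a median of 1.75; 10 passed the filter on MCD alone. Type I collagen, the main scar collagen, averaged 1807 against 227 for Col1a1 (2.76 ± 0.24) and stood at 2.199 ± 0.20 for Col1a2. Col3a1 averaged 4401 against 777 (2.26 ± 0.23), and the basement membrane collagen Col4a1 5409 against 944 (2.28 ± 0.18). Thrombospondin, Thbs1, which activates TGF-beta, stood at 2.46 ± 0.37. Fibronectin, Fn1, which hepatocytes secrete in bulk, was 56602 against 47415 (0.018 ± 0.088), and Col15a1 was -0.50 ± 0.26.

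Genes that cut the matrix or restrain its cutting were higher too. Over all 16 genes, the filter aside, 14 were higher and 0 lower by 1 or more; 7 passed the filter on MCD alone. Among the higher ones were the sheddase Adam8 (4.26 ± 0.35), urokinase Plau (3.43 ± 0.30) and its receptor Plaur (3.33 ± 0.33). The metalloproteinase inhibitor Timp1, below the filter, averaged 125 against 2.38. Hepatic stellate cells store vitamin A at rest and turn into matrix-producing myofibroblasts on injury. Over all 15 activation markers, the filter aside, 9 were higher and 0 lower by 1 or more, with a median of 1.32; 5 passed the filter on MCD alone. The higher ones include the growth factor receptor Pdgfra (2.51 ± 0.17), Tgfbi (2.22), vimentin Vim (1.98), Ccn2 (2.22 ± 0.31) and smooth muscle actin Acta2 (369 against 125, 1.32 ± 0.54). Markers of the resting state were not lower: Lrat, which esterifies retinol, averaged 977 against 271 (1.61 ± 0.38), the growth factor Hgf stood at 1.69 ± 0.20 and Reln at 1.34 ± 0.15, and 7 of all 12 such genes, the filter aside, were higher by 1 or more. The profibrotic cytokine Tgfb1 stood at 1.29 ± 0.21.

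Macrophage and monocyte marker genes were mostly higher. Lipid-associated macrophages gather where hepatocytes die and take up their lipid. Over all 16 of their markers, the filter aside, 14 were higher and 0 lower by 1 or more, with a median of 3.24; 9 passed the filter on MCD alone. Beyond Gpnmb and Mmp12, the proton pump subunit Atp6v0d2 averaged 1353 against 25.1 (5.51 ± 0.40) and the integrin Itgax 858 against 21.3 (5.10 ± 0.32). The lipid receptor Trem2 averaged 729.8 against 44 (3.82 ± 0.32), galectin Lgals3 3302 against 97.9 (4.84 ± 0.30), and Spp1, osteopontin, 3161 against 1237 (1.12 ± 0.19). Fabp5 went the other way at -0.97 ± 0.33.

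Over all 16 markers of resident Kupffer cells, the filter aside, 3 were higher and 2 lower by 1 or more, with a median of 0.48; 1 passed the filter on MCD alone. The pan-macrophage marker Adgre1 stood at 0.90 ± 0.23, while Clec4f, a lectin of Kupffer cells, was 1635 against 2097 (-0.60 ± 0.32). Cd163, the haemoglobin scavenger, stood at -1.06 ± 0.50, the scavenger receptor Marco at 1.58 ± 0.46, C1qb at 1.18 ± 0.18 and the growth factor receptor Csf1r at 1.16 ± 0.19. Timd4, a marker of long-lived Kupffer cells that lay below the filter, averaged 53.3 against 121 (-1.43 ± 0.36). Over all 12 monocyte markers, the filter aside, 12 were higher and 0 lower by 1 or more, with a median of 2.44; 4 passed the filter on MCD alone. Among them were the chemokine receptor Ccr2 at 350.4 against 31.7 (3.23 ± 0.26), the fractalkine receptor Cx3cr1 at 3.32 ± 0.31, the integrin Itgam at 3.38 ± 0.34 and lysozyme Lyz2 at 2.77 ± 0.21.

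Over all 12 dendritic cell and MHC class II genes, the filter aside, 12 were higher and 0 lower by 1 or more; 3 passed the filter on MCD alone. They include the antigen-presenting H2-Eb1 (2.04 ± 0.19), H2-DMb1 (1.99), H2-Aa (1.99 ± 0.16) and H2-Ab1 (1.88) and Clec9a of cross-presenting dendritic cells (1.19 ± 0.25). Lymphocyte genes were scarce, and none of 14 T and NK cell markers reached 5 CPM: Cd8a averaged 25.9 against 6.01 and Cd3e 20 against 9.8. At these low levels, the filter aside, 8 of the 14 were higher and 0 lower by 1 or more, with a median of 1.27. Of 12 neutrophil markers 1 reached 5 CPM, Csf3r (1.85 ± 0.33), and the granule protein S100a9 averaged 139.7 against 24.1. The filter aside, 6 of the 12 were higher and 0 lower by 1 or more, with a median of 0.61. The B cell gene Ighm was 179.5 against 176.

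Over all 30 chemokine, cytokine and receptor genes, the filter aside, 18 were higher and 0 lower by 1 or more; 5 passed the filter on MCD alone. The monocyte attractant Ccl2 stood at 273 against 28.7 (3.01 ± 0.44), the IL-1 receptor antagonist Il1rn at 3.26 ± 0.30, the TWEAK receptor Tnfrsf12a at 2.33 ± 0.21 and the interferon-induced Cxcl10 at 2.24 ± 0.26. Il6ra (-0.64) and Il1r1 (-0.80), receptors that hepatocytes carry, were below 0. Tnf averaged 61.9 and 6.66 normalized counts, below the filter in both groups. Over all 22 Toll-like receptor and NF-kB genes, the filter aside, 14 were higher and 0 lower by 1 or more; 6 passed the filter on MCD alone. The higher ones include Tlr2 (2.49 ± 0.25), Tlr13 (2.86 ± 0.35), Cd14 (2.63 ± 0.23), the co-receptor for lipopolysaccharide, and Tnfaip3 (1.98 ± 0.28), a brake on NF-kB. Of 23 interferon-response genes 8 were higher and 1 lower by 1 or more, and 6 passed the filter on MCD alone. Gbp2 stood at 2.11 ± 0.19, Usp18 at 1.78 ± 0.15, Ifit2 at 1.48 ± 0.22, Rsad2 at 1.42 ± 0.26 and Bst2 at -1.08 ± 0.096.

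**Figure D3:**
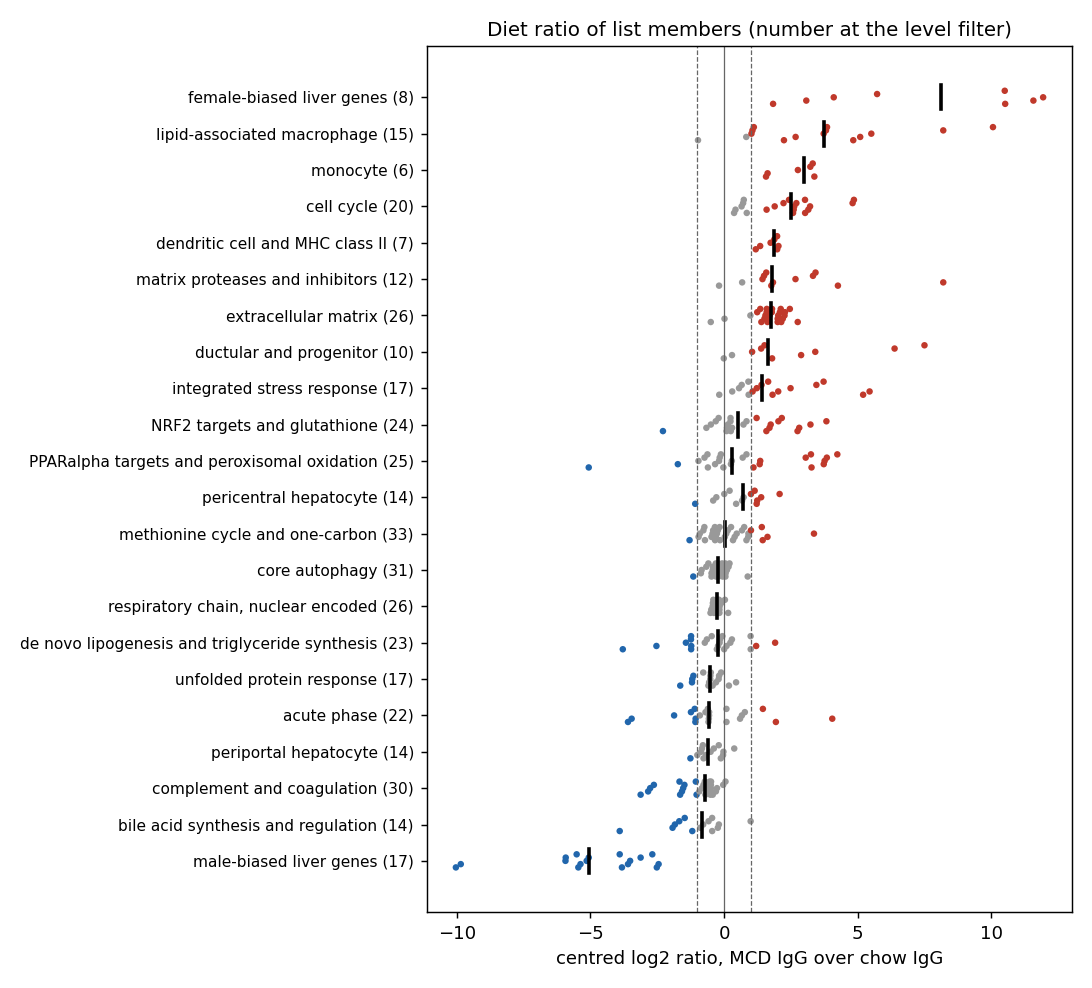
Centred log2 ratio of MCD IgG over chow IgG for each member of 22 gene lists at the level filter (number in brackets), with a black bar at the list's median and dashed lines at -1 and 1. Red points are higher and blue points lower by 1 or more; the male-biased list lies wholly below -1, and the nuclear respiratory chain and core autophagy lists gather around 0. Members that were scarce on chow are shown only where they were high on MCD.

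Most cell cycle genes were higher. Over all 27 genes of that list, the filter aside, 20 were higher and 0 lower by 1 or more, with a median of 2.23; 15 passed the filter on MCD alone. Cyclin D1, Ccnd1, which hepatocytes use to leave rest, averaged 17377 against 524 (4.81 ± 0.23). Mitotic genes were low in absolute terms on both diets: Cdc20 averaged 428 against 12.5 (4.86 ± 0.62), Mki67 420.3 against 43.6 (3.03 ± 0.30), the spindle factor Tpx2 stood at 3.16 ± 0.39, and Cdk1 averaged 208 against 37.8 (2.23 ± 0.28). The replication helicase subunit Mcm5 stood at 3.22 ± 0.26. The cell cycle inhibitor Cdkn1a, a p53 target, averaged 1281 against 182 (2.58 ± 0.44); 3 of 15 p53 targets were higher by 1 or more, the remaining ones being Phlda3 (2.58) and Btg2 (1.75), while the p53 inhibitor Mdm2 stood at 0.26 ± 0.13 and Trp53inp1 at 0.95 ± 0.46.

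Over all 17 ductular and progenitor genes, the filter aside, 11 were higher and 0 lower by 1 or more. Of these 17 genes 7 passed the filter on MCD alone. The list also holds the cornified envelope gene Sprr1a (7.50), its highest member at the filter. The fetal liver protein Afp averaged 349 against 27.7 (3.42 ± 0.28), and the keratin Krt23 364 against 41.8 (2.89 ± 0.38). The keratins of hepatocytes themselves, Krt8 (1.80 ± 0.13) and Krt18 (1.52 ± 0.13), were higher too, whereas the biliary transcription factor Sox9 stood at 0.30 ± 0.29. Krt19 of bile ducts averaged 157 and 107, below the filter. Over all 16 annexin and S100 genes, the filter aside, 9 were higher and 0 lower by 1 or more. Of these 16 genes 4 passed the filter on MCD alone. Those at the filter were led by Anxa2 (4889 against 285, 3.86 ± 0.19), a membrane-repair protein, S100a11 (3.37), Anxa1 (2.43) and S100a6 (2.25). Of 9 targets of the YAP pathway 3 were higher by 1 or more, with Ajuba at 2.33 ± 0.23, the receptor kinase Axl at 1.59 ± 0.16 and Ccn1 at 1.26 ± 0.49, and of 12 immediate early genes 4, with Ier3 at 3.16 ± 0.26, Klf6 at 2.69 ± 0.20, Myc at 1.90 ± 0.93 and Jun at 2.10 ± 0.61.

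The methionine cycle, deprived of its substrate, showed a mixed picture. Of 33 genes 5 were higher and 1 lower by 1 or more, or 15.2% and 3.03% against 10.8% and 4.46% of all genes, and the median was 0.031. Mat2a, the S-adenosylmethionine synthetase found outside hepatocytes and in proliferating ones, whose transcript is stabilised when S-adenosylmethionine is short, averaged 10234 against 2810.1 (1.63 ± 0.12). Mat1a, the adult hepatocyte enzyme, averaged 133059.9 against 59906 (0.91 ± 0.14). Bhmt, which remakes methionine from homocysteine with choline-derived betaine, averaged 184863 against 77954 (1.01 ± 0.39), and methionine synthase Mtr was 0.14 ± 0.11.

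Gnmt and Cbs, enzymes that draw on the cycle, stood just short of -1. Gnmt, which burns surplus S-adenosylmethionine, averaged 23833 against 39121 (-0.95 ± 0.18), and Cbs, which commits homocysteine to cysteine, 11515 against 18293 (-0.91 ± 0.16). Ahcy stood at -0.71 ± 0.14, while Cth, the next step to cysteine, was near 0 (0.031 ± 0.18). The mitochondrial folate enzymes Mthfd1l (354 against 29.1, 3.37 ± 0.49) and Mthfd2 (1.41 ± 0.26) were higher, and their cytosolic counterpart Mthfd1 (-0.43 ± 0.085) was not. The amino acid transporter Slc43a1 stood at 1.45 ± 0.25 and the betaine-making aldehyde dehydrogenase Aldh7a1 at -1.29 ± 0.092. The polyamine synthases Srm (0.91) and Sms (-0.31) and their supplier Amd1 (-0.17) stayed within 1, as did Mtap (0.40), Enoph1 (0.84), Adi1 (-0.47) and Apip (-0.34), which recycle the by-product of polyamine synthesis to methionine. So did the enzymes that degrade choline through betaine, Chdh (0.083), Dmgdh (0.76) and Sardh (-0.74), with Bhmt2 (0.26). Of the folate enzymes, Shmt1 stood at -0.41, Shmt2 at -0.15 and Aldh1l1 at -0.77, and Mtrr, which keeps methionine synthase active, at 0.67. The methyltransferase Nnmt (-0.34), the regulatory subunit Mat2b (0.47), Ahcyl1 (-0.27) and the amino acid transporter Slc38a2 (-0.23) were within 1 as well, and the transporter Slc7a5 lay below it at 146 against 70.6.

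Choline and phospholipid synthesis genes stood close to the median gene: 1 of 22 was higher and 1 lower by 1 or more, and the median was 0.03. Chka, which phosphorylates choline, stood at 0.11 ± 0.24, Pcyt1a, the rate-limiting enzyme of phosphatidylcholine synthesis, at -0.0085 ± 0.098, and Pemt, which makes phosphatidylcholine by methylation instead, at 0.22 ± 0.068. The last enzyme of the choline branch, Chpt1, averaged 2828 against 5698 (-1.25 ± 0.12). Pcyt2 of the ethanolamine branch stood at -0.84 ± 0.092, the choline transporter Slc44a1 at -0.61 ± 0.13 and Lpcat1, which reacylates lysophosphatidylcholine, at 1.68 ± 0.24. The choline transporter-like Slc44a2 stood just under 1 (0.995 ± 0.14) and Gpcpd1, which frees choline from glycerophosphocholine, at 0.72 ± 0.23. Further members at the filter lay between -0.37 (Etnk1) and 0.27 (Etnk2), both ethanolamine kinases: the phosphatidylserine synthases Ptdss1 (-0.013) and Ptdss2 (0.27), the decarboxylase Pisd (-0.099), Chkb (-0.12), Cept1 (0.026), Selenoi (-0.12), Lpcat3 (0.034), the phospholipases Pla2g6 (0.20) and Pld1 (0.07), and the carrier Slc44a3 (-0.28). Lpcat2 (136 against 50.1) and Pcyt1b (15.8 against 10.9) were below the filter.

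Scd1, Fasn and suppliers of fatty acid synthesis were lower, and 3 of the 4 listed desaturases were not. Of 23 genes 7 were lower, against 4.46% over all genes, and 2 higher by 1 or more; the median of -0.22 turns to 0.17 under scaling to column totals. Scd1, the stearoyl-CoA desaturase whose loss is a known mark of the MCD diet, averaged 12779 against 149847 (-3.79 ± 0.38). Thrsp, a lipogenic regulator, averaged 3559 against 17441 (-2.53 ± 0.44), and fatty acid synthase Fasn 11793 against 26908 (-1.43 ± 0.36). Mlxipl, the carbohydrate-sensing transcription factor ChREBP, stood at -1.24 ± 0.13, and Srebf1 at -0.72 ± 0.50. Acly, which supplies cytosolic acetyl-CoA, stood at -1.23 ± 0.34, Acss2 at -1.23 ± 0.21 and the NADPH source Me1 at -1.23 ± 0.17, whereas acetyl-CoA carboxylase Acaca was -0.22 ± 0.17. Fads2, a desaturase of polyunsaturated fatty acids, went the other way at 65629 against 14782 (1.91 ± 0.19), with Scd2 at 1.20 ± 0.20 and Fads1 at 0.996 ± 0.12.

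Genes of mitochondrial fatty acid oxidation stayed near the median gene, with 1 of 22 higher by 1 or more, the carnitine transferase Cpt1a (21648 against 9002, 1.03 ± 0.15), Bdh1 of ketone body metabolism at 0.74 ± 0.092, Eci2 at -0.60 ± 0.17 and the thiolase Acaa2 the lowest at -0.82 ± 0.096. Targets of PPARalpha, the fatty acid sensor of hepatocytes, divided. Of 25 such genes 10 were higher (40.0%) and 2 lower (8.0%) by 1 or more, against 10.8% and 4.46% of all genes. Of these 25 genes 5 passed the filter on MCD alone. The hormone Fgf21 averaged 2653 against 119 (4.24 ± 0.70), the omega-hydroxylase Cyp4a14 31747 against 2025 (3.73 ± 0.65), and the thioesterases Acot3 and Acot2 stood at 3.85 ± 0.78 and 3.77 ± 0.46. Pdk4, which holds back glucose oxidation, stood at 3.25 ± 0.48 and the peroxisomal transporter Abcd2 at 3.06 ± 0.25. The fatty acid receptor Cd36, also abundant in macrophages, averaged 7445 against 652 (3.28 ± 0.17). The peroxisomal thiolase Acaa1b (-0.96 ± 0.20) lay below the median gene, and the fatty acid binding protein Fabp1 with 42988 against 120904 (-1.73 ± 0.14) was lower. Cyp4a12a, which belongs to the male-biased list too, was the lowest of the group.

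Lipid droplet genes were led by Cidec, which fuses droplets into larger ones, at 2436 against 51.1 (5.34 ± 0.51). The coat proteins Plin4 (1.87 ± 0.44), Plin2 (30617 against 10861, 1.26 ± 0.16) and Plin5 (1.03 ± 0.24) were higher, and 6 of 17 genes passed 1, the lipases Pnpla2 and Lipa just so at 1.004 and 1.01. Cidea, below the filter, averaged 4.51 against 1.89, and the droplet-inducing Fitm1 stood at -1.83 ± 0.32. For VLDL, Apoa4, made by fat-loaded liver, averaged 120285 against 9579.9 (3.41 ± 0.25), whereas its structural protein Apob was -0.0015 ± 0.07 and Mttp, which loads it with lipid, -0.72 ± 0.092. Hepatic lipase Lipc (-1.30 ± 0.12) and Apoc1 (-1.05 ± 0.11) were lower by 1 or more, and Apoc2, which activates lipoprotein lipase, stood at 0.97 ± 0.12. Of 24 cholesterol genes 1 was higher (4.17%) and 2 lower (8.33%) by 1 or more, against 10.8% and 4.46% of all genes. The sterol sensor Insig1 stood at -1.10 ± 0.21 and Tm7sf2 at -1.95 ± 0.17, with Hmgcs1 at 0.58 ± 0.36.

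**Figure D4:**
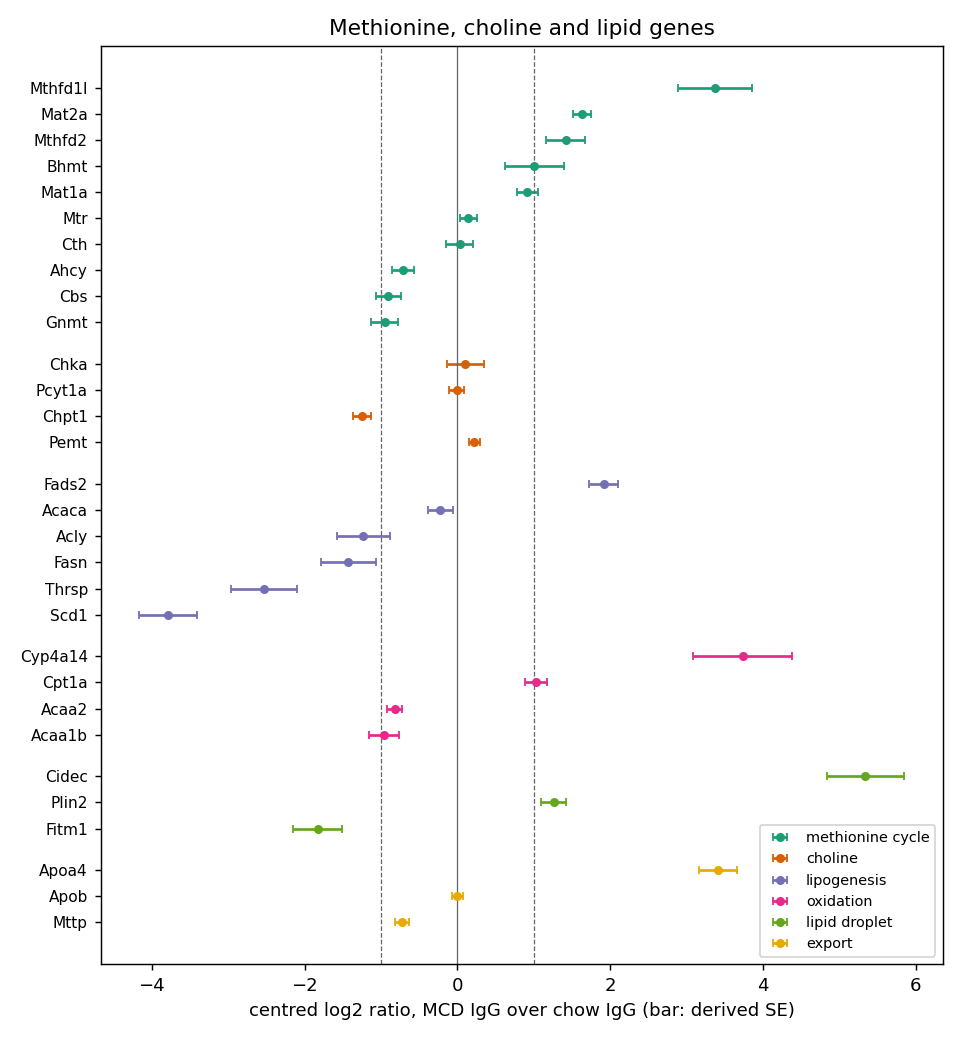
Centred log2 ratio of MCD IgG over chow IgG with its derived SE for genes of the methionine cycle, choline use, lipogenesis, fatty acid oxidation, lipid droplets and lipid export. Cidec, Cyp4a14, Apoa4 and Mthfd1l lie above 3 and Scd1 below -3, while Pcyt1a, Apob and Cth lie at 0 within their SEs.

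Genes of the integrated stress response were higher, while those of the unfolded protein response of the endoplasmic reticulum were not. The first is switched on when amino acids run short or other kinases phosphorylate eIF2alpha, and acts through the transcription factor ATF4. Over all 19 genes of that response, the filter aside, 13 were higher and 0 lower by 1 or more, with a median of 1.40; 7 passed the filter on MCD alone. Of 17 unfolded protein response genes 0 were higher and 4 lower, with a median of -0.51. ATF4 binds, with C/EBP partners, the C/EBP-ATF response element, searched here as TGATGNAA on both strands (TTNCATCA on the other). It lay in the promoter window, 250 bases before to 50 after the gene start, of 6 of the 18 listed genes that have one in the RefSeq table (build GRCm38.p6), and in that of 4.51% of all 27025 genes. The members with a match were Atf3, Nupr1, Asns, Trib3, Vldlr and Chac1, and the windows of the 4 with the highest ratios are shown. Capitals mark the element in each, and each gene lies on the minus strand.
Atf3 (chr1:191183284-191183583): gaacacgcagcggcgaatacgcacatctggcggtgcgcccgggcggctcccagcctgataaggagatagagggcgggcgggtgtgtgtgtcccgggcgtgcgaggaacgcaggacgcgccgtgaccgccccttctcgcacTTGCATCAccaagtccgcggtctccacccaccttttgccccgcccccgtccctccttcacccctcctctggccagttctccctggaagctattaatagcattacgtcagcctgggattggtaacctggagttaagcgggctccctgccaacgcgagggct
Nupr1 (chr7:126625421-126625720): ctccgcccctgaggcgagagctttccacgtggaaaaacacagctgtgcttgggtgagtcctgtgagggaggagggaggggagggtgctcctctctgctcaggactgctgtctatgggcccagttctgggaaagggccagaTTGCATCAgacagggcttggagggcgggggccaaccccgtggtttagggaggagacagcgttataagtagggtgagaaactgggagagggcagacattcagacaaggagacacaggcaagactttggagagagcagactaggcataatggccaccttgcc
Asns (chr6:7693160-7693459): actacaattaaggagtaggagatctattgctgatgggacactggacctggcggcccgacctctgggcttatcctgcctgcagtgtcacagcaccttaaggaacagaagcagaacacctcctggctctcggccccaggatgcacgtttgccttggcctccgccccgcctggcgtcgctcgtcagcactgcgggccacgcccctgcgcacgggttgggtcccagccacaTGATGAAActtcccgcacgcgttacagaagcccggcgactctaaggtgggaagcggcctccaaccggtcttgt
Trib3 (chr2:152344011-152344310): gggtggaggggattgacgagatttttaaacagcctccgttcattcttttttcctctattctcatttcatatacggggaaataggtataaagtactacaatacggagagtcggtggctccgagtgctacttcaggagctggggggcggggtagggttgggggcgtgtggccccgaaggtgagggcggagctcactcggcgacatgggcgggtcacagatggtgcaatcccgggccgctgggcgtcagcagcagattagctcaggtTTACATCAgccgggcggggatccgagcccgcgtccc

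Of the genes shown, Atf3, a stress-induced repressor, averaged 1479 against 28.7 (5.45 ± 0.45), and Nupr1, a stress-induced chromatin protein, 2800.1 against 64.3 (5.21 ± 0.41). Asns, asparagine synthetase, averaged 1089 against 84.1 (3.46 ± 0.41) and the pseudokinase Trib3 2477 against 374 (2.49 ± 0.26). Vldlr and Chac1 stood at 2.03 ± 0.36 and 1.40 ± 0.51. Members without a match in the window were also high, such as Psat1 of serine synthesis (621 against 39.7, 3.73 ± 0.42) and the death-promoting Ddit3 (1.65 ± 0.22), so the letters do not divide the list. Atf4 itself, which is mainly controlled in translation, was 0.66 ± 0.16, and the stress hormone Gdf15 1.23 ± 0.67. On the side of the endoplasmic reticulum the chaperone Hspa5 was -0.11 ± 0.13, Xbp1 -0.43 ± 0.17, Sdf2l1 -1.64 ± 0.20, Syvn1 -1.20 ± 0.32, Creld2 -1.19 ± 0.27 and Herpud1 -1.15 ± 0.23.

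Antioxidant genes under NRF2 were higher in part. Over all 25, the filter aside, 11 were higher and 1 lower by 1 or more, and 4 passed the filter on MCD alone. Gsta1, a glutathione transferase, averaged 2049 against 122 (3.83 ± 0.52), the sulfiredoxin Srxn1 7558 against 952 (2.75 ± 0.21) and the quinone reductase Nqo1 730.3 against 138 (2.16 ± 0.18). The carbonyl reductase Cbr3 stood at 3.24 ± 0.50, Gstm3 at 2.81 ± 0.18 and the haem oxygenase Hmox1 at 1.70 ± 0.22. The enzymes of glutathione synthesis were near or below the median gene, with Gclc at -0.20 ± 0.17 and Gclm at -0.31 ± 0.13. Gstp1, a transferase more abundant in male mouse liver, averaged 22005 against 91044 (-2.29 ± 0.15). Of 15 selenoprotein and peroxidase genes Gpx3 (1.91 ± 0.20) was higher, catalase Cat (-1.21 ± 0.09) and the deiodinase Dio1 (-1.15 ± 0.18) were lower by 1 or more, Sod1 was -0.83 ± 0.08, and Gpx4, which protects membranes from lipid peroxides, stood at 0.73 ± 0.091. Of 11 genes tied to ferroptosis 3 were higher by 1 or more, including Acsl4 (1.34 ± 0.15), which loads membranes with polyunsaturated fatty acids.

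Bile acid synthesis genes were lower. Of 14 genes 6 were lower and 0 higher by 1 or more, with a median of -0.83. Cyp8b1, which makes cholic acid, averaged 3341 against 10137 (-1.84 ± 0.51), the coenzyme A ligase Slc27a5 stood at -1.93 ± 0.12, and Nr0b2, the repressor SHP, at -1.68 ± 0.57. Cyp7a1, the rate-limiting enzyme, stood apart at 3911 against 1662, a ratio of 0.997 with a derived SE of 0.62. The bile acid importer Slc10a1 averaged 5266 against 15995 (-1.84 ± 0.14) and the canalicular exporter Abcb11 13932 against 21307 (-0.85 ± 0.16). The exporters Abcc4 (774 against 64.2, 3.35 ± 0.39) and Abcb1a (1005 against 76.5, 3.48 ± 0.25) passed the filter on MCD alone. Over all 16 bile acid and canalicular transport genes, the filter aside, 4 were higher and 2 lower by 1 or more. Of these 16 genes 2 passed the filter on MCD alone. Of the organic anion carriers, Slco1a4 stood at 2.34 ± 0.20 and Slco1a1, a male-biased gene, at -3.59 ± 0.17.

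Of 22 drug metabolism genes 3 were higher (13.6%) and 8 lower (36.4%) by 1 or more, against 10.8% and 4.46% of all genes. Cyp2c54 (-4.51 ± 0.37), the carboxylesterase Ces2a (-2.94 ± 0.15) and Cyp2c29 (-2.21 ± 0.17) were lower, as were Ugt2b1 (-2.12 ± 0.13) and Ces1d (-1.86 ± 0.30), and Cyp2c39 was higher (3.42 ± 0.28). Cyp2a5, whose near-identical copy is Cyp2a4, averaged 61999 against 15494 (1.76 ± 0.23), so reads of both may be mixed. Cyp2e1 was 0.45 ± 0.10 and Cyp3a11 -0.14 ± 0.18.

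Secreted hepatocyte proteins lay mostly below the median gene. Of 30 complement and coagulation genes 11 were lower and 0 higher by 1 or more, against 4.46% lower over all genes, with a median of -0.71. The components of the membrane attack complex led: C6, which is also on the male-biased list, averaged 1655 against 12213 (-3.12 ± 0.18), C8a 5877 against 35709.5 (-2.84 ± 0.12), C9 4876 against 28101 (-2.76 ± 0.14) and C8b 2761 against 14454 (-2.63 ± 0.14). C3 (0.056 ± 0.11) and coagulation factor F5 (-0.031 ± 0.094) were at the median gene. Albumin, Alb, was 2348593 against 1971737 (0.015 ± 0.11), and of 20 hepatocyte genes 3 were lower by 1 or more, Serpina1c (-1.95), Serpina1a (-1.15) and Ambp (-1.05). The hepatocyte identity factor Hnf4a stood at -0.64 ± 0.14; among 14 such factors Nr0b2 alone was lower by 1 or more.

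Acute phase genes split. Of 22 genes 3 were higher (13.6%) and 7 lower (31.8%) by 1 or more, against 10.8% and 4.46% of all genes. Lcn2, an iron-siderophore binding protein, averaged 8024 against 410.4 (4.05 ± 0.28), and Orm3 (1.94 ± 0.45) and Apcs (1.45 ± 0.18) were higher as well. Serum amyloid Saa1 averaged 2854 against 26601 (-3.46 ± 0.45) and Saa2 1921 against 19696 (-3.60 ± 0.58), which are near-identical copies. Of the 4 groups chow IgG held the highest serum amyloid level, since Saa1 averaged 755 in chow anti-ACBP and 816 in MCD anti-ACBP. The fibrinogen chain Fgg stood at -1.24 ± 0.10, Saa4 at -1.87 ± 0.17 and haptoglobin Hp at -0.57 ± 0.16.

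Genes of hepatocytes around the central vein lay above the median gene and those of hepatocytes around the portal vein below it. Over all 15 pericentral genes, the filter aside, 7 were higher and 1 lower by 1 or more (median 0.73), and 3 passed the filter on MCD alone. The ammonium transporter Rhbg stood at 2.08 ± 0.25, the WNT target Axin2 at 1.39 ± 0.26 and glutamine synthetase Glul at 67883 against 28629 (1.01 ± 0.14). Of 14 periportal genes 0 were higher and 1 lower (median -0.59), with Cyp2f2 at -1.26 ± 0.13, Uroc1 just outside the threshold at -0.999, and histidine ammonia-lyase Hal at -0.79 ± 0.20. Of 16 liver endothelial genes 3 were higher by 1 or more, led by Plvap (1.47 ± 0.16), Rspo3 (1.37 ± 0.19), the WNT enhancer of the central vein, and Lyve1 (1.20 ± 0.28).

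In glucose metabolism 2 of 19 genes were higher (10.5%) and 5 lower (26.3%) by 1 or more, against 10.8% and 4.46% of all genes. Glucose-6-phosphatase, G6pc, averaged 5162 against 12067 (-1.46 ± 0.27), and Pck1 of gluconeogenesis was -0.38 ± 0.23. Glycogen-targeting subunits of protein phosphatase diverged, with Ppp1r3g at 3.08 ± 0.75 and Ppp1r3c and Ppp1r3b at -1.92 ± 0.56 and -1.88 ± 0.29. Over all 9 glycolytic isoforms that hepatocytes lack, the filter aside, 6 were higher and 0 lower by 1 or more. Of these 9 genes 4 passed the filter on MCD alone. Pkm stood at 1.86 ± 0.12 and Ldhb at 1.86 ± 0.19. Of 25 amino acid and urea cycle genes 2 were higher (8.0%) and 4 lower (16.0%) by 1 or more, against the same shares of all genes. Csad, which makes taurine from cysteine, averaged 2544 against 15530.4 (-2.85 ± 0.26), and Haao, of tryptophan breakdown, stood at -1.77 ± 0.11. The urea cycle enzyme Otc stood at -1.42 ± 0.11 and Oat, which makes glutamate from ornithine, at 1.22 ± 0.21. In the pentose phosphate pathway 2 of 8 were higher by 1 or more, G6pdx (1.28 ± 0.20) and Pgd (1.19 ± 0.14), both of its NADPH-producing oxidative arm.

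Metallothioneins and hepcidin were higher. Metallothionein Mt1 averaged 6126 against 851 (2.61 ± 0.40) and Mt2 4194 against 415 (3.10 ± 0.52), while the manganese exporter Slc30a10 stood at -2.64 ± 0.32. Hepcidin, Hamp, the iron-regulating hormone, averaged 39191 against 11231 (1.57 ± 0.35), its paralog Hamp2 stood at 2.93 ± 0.44, and Id1, a target of the same BMP signal, at 2.45 ± 0.39. Transferrin receptor Tfrc was 1.22 ± 0.20 and its hepatocyte paralog Tfr2 -1.51 ± 0.09. Erythroid transcripts were lower: all 5 of 7 red cell genes at the filter were lower by 1 or more, with Hbb-bs at 4261 against 10120.3 (-1.49 ± 0.42), Hba-a1 (-1.49), Hba-a2 (-1.50), Hbb-bt (-2.15) and Alas2 (-1.56). The copies of haemoglobin genes share sequence. The 7 red cell genes summed to 11292 normalized counts in MCD IgG, 27915 in chow IgG and 20848 to 24018 in the anti-ACBP groups, and their part in the other ratios was not tested. Of the adipocyte list Plin4 was higher, Car3 (-1.61 ± 0.20) and Adrb3 (-2.005 ± 0.23) were lower, and the defining markers Adipoq and Cfd averaged 8.36 and 40.1 in MCD IgG and 2.73 and 46.7 in chow IgG. Cela1 was the sole pancreatic gene at the filter (-1.37 ± 0.18).

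Dbi, which encodes the target of the antibody that these mice did not receive, averaged 13686 against 24311 normalized counts (-1.07 ± 0.092). Its ratio is within 1 at -0.83 without centring, -0.67 under scaling to column totals and -0.94 when centred on housekeeping genes. Part of the lysosomal genes were higher, with 8 of 30 higher and 1 lower by 1 or more; those that led, Cd63 (3.73 ± 0.21), Cd68 (2.68 ± 0.21), Ctss (2.59 ± 0.19) and Laptm5 (2.06 ± 0.18), are also abundant in macrophages, whose marker lists were higher in the same livers; the 16 lipid-associated macrophage markers summed to 57587 against 16204 normalized counts, and their part in the lysosomal ratios was not tested. Core autophagy genes gathered near the median gene: of 31 0 were higher and 1 lower by 1 or more, the initiating kinase Ulk2 (-1.15 ± 0.11), with Ulk1 at -0.87 ± 0.13 and Atg14 at -0.84 ± 0.15, and their median of -0.21 turns to 0.18 under scaling to column totals. The cargo receptor Sqstm1, also an NRF2 target, was the highest at 36129 against 16581 (0.89 ± 0.13). Nuclear genes of the respiratory chain spanned -0.51 to 0.16 with none past 1, and those encoded in mitochondrial DNA -1.27 (mt-Nd2, with mt-Co3 at -1.02) to -0.12 (mt-Atp8).

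The same diet ratio was computed from the anti-ACBP groups, which share no sample with the IgG groups, to show where the IgG livers differed. Of the 1135 genes higher by 1 or more under IgG, 1059 were above 0 under anti-ACBP and 235 were higher by 1 or more; of the 467 lower genes, 414 were below 0 and 70 lower by 1 or more. The higher genes had a median of 1.60 under IgG and 0.54 under anti-ACBP, and the lower genes -1.52 and -0.45. The genes were chosen on the IgG ratio, so part of that gap is set by the choice. Floor and centring aside, the difference between both diet ratios equals the difference of the antibody fold changes in the authors' deposited tables. The deposited fold changes stop at -5 and 5, so for genes at those ends the equality does not hold. Within each table's own scale the difference could be tested. The difference was given a two-sided normal test on the deposited fold changes and SEs, with Benjamini-Hochberg adjustment over 14607 genes. It passed an adjusted p of 0.05 for 3394 genes (23.2%), with the diet ratio above that under anti-ACBP for 1547 and below it for 1847. Genes whose deposited adjusted p was missing or at its upper limit in either table were not tested. Among the highest genes these were Cyp2b9, Sult1e1, Gpnmb, Mmp12, Sprr1a, Spink1 and Vmn2r3.

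All but 1 of the 17 male-biased genes (the exception was Cyp4a12b, with an adjusted p of 0.513) had a diet ratio that was lower under IgG than under anti-ACBP at that threshold, and all 5 of the female-biased genes that could be tested had a higher one, as the plot of sex-biased genes in all 4 groups shows. All counts here stand against 23.2% of all genes that differed in either direction, and the genes of each list were chosen with earlier results known. Among 30 complement and coagulation genes tested, 28 had the lower ratio under IgG, and among 14 lipid-associated macrophage markers 11 had the higher one. Of 17 unfolded protein response genes 14 had the lower ratio under IgG; their median was -0.51 under IgG and 0.33 under anti-ACBP. Of 24 NRF2 targets 16 had the higher ratio under IgG, where Nqo1 stood at 2.16 against -0.13 under anti-ACBP. Of 18 integrated stress response genes 5 had the higher and 0 the lower ratio under IgG, with Asns at 3.46 under IgG and 3.05 under anti-ACBP (adjusted p 0.725) and Atf3 at 5.45 and 0.24 (adjusted p 9.09e-14). Of 34 methionine cycle genes 5 had the higher and 6 the lower ratio under IgG. Col1a1 stood at 2.76 under IgG and 1.87 under anti-ACBP (adjusted p of the difference 0.0645), Scd1 at -3.79 and -1.59 (adjusted p 0.000361) and Mat2a at 1.63 and 0.98 (adjusted p 0.00477).

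**Figure D5:**
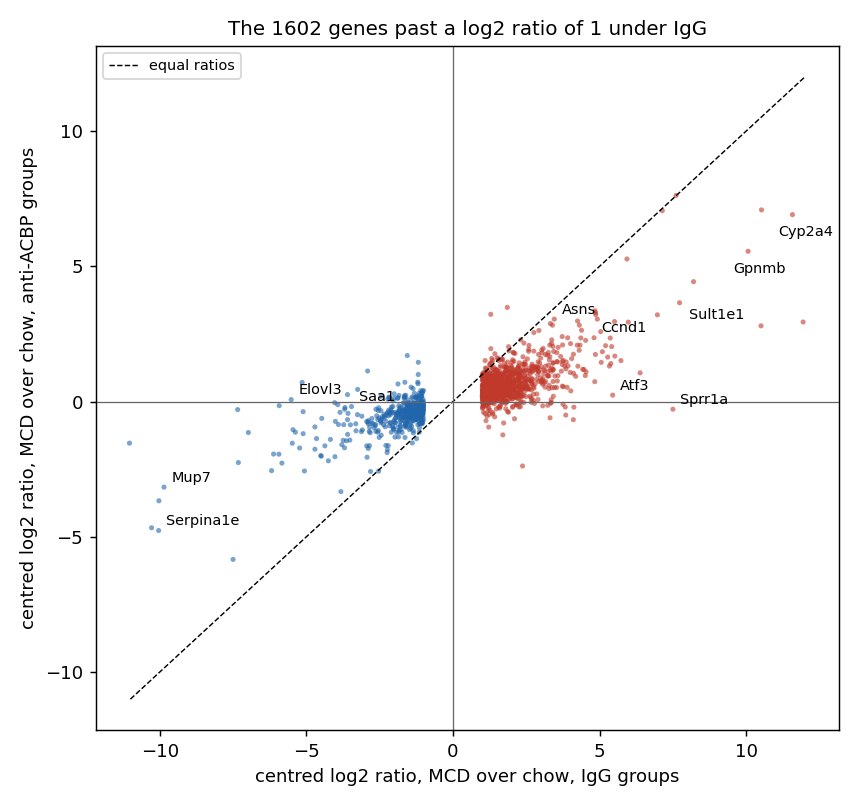
Centred log2 diet ratio (MCD over chow) in the anti-ACBP groups against that in the IgG groups, for the 1602 genes past 1 in either direction under IgG. Of the 1135 higher genes 235 also pass 1 on the vertical axis; Cyp2a4 stands at 11.58 and 6.91, and Serpina1e at -10.04 and -4.77.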

How the data were processed

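RNA was prepared from liver with column kits and sequenced as strand-specific libraries of polyadenylated RNA, per the labels' protocols. Reads were aligned to mm39 with HISAT2 2.2.1, counted with HTSeq 0.13.5 and compared with DESeq2, per the submitters' processing notes; the roles of the tools are inferred from what each does, and the annotation is not given in the sources used here. The authors deposited, per diet, a mean signal per group (counts divided by size factors, averaged over the libraries), a log2 fold change of anti-ACBP over IgG, its SE (a score with no fixed range) and p-values. No values of single libraries were used, so the levels carry no SD.

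Both tables were joined on the gene symbol. The log2 ratio of MCD IgG over chow IgG was taken with a floor of 3 normalized counts and centred on its median; genes at 5 CPM in at least 1 column were kept, and 1 on the log2 scale was the threshold. For the derived SE, the deposited SE of each table was solved for a dispersion shared by its groups, taking as many libraries in both as behind the IgG mean (5 for MCD, 4 for chow), and the counting error of the IgG mean was added; both tables' errors were then combined. The difference of the diet ratio between antibodies was tested with a two-sided normal test on the deposited log2 fold changes and SEs, with Benjamini-Hochberg adjustment over 14607 genes; the calculation was tested on simulated data. Nothing in the labels says that libraries came from separate animals, so its p-values measure the spread between these samples only. Column totals of the mean signal lay between 34621779 and 39398190 normalized counts per group, which is the depth after scaling; raw depth is not given in the sources used here.

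Named genes were the 12 highest and 12 lowest, predicted genes and pseudogenes aside, up to 4 members with the largest ratios per list, and every gene of the methionine, choline and key gene lists; Apoc2 and similar further examples come from the same lists. Some genes that meet these rules are not reported here. The comparison, the 66 gene lists and their members were chosen with earlier results of these data known. Promoter sequences are from RefSeq, build GRCm38.p6, which is not the build of the files, so genes were matched by symbol. Python 3.11.15 with pandas 2.3.3, scipy 1.17.1 and matplotlib 3.10.9 was used. Alternatives were other centrings, filters and floors; the counts over all listed members, the filter aside, were added after seeing the data.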

Additional observations from a re-analysis of the deposited data

Results flagged for a closer look

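The genes below, from both ends of the diet ratio, had a ratio under IgG that differed from that under anti-ACBP at an adjusted p of 0.05. They were chosen as the highest and lowest under IgG, and the same IgG means enter the test, so the choice favours a wider ratio under IgG and these values are a description. The test was the two-sided normal test with Benjamini-Hochberg adjustment over all genes tested. The ratio of Cyp2a4 under IgG exceeded that under anti-ACBP by 4.61 ± 1.07 on the log2 scale (SE, adjusted p 0.000232). The gap was 4.03 ± 0.55 for Cyp2a22 (adjusted p 3.16e-11), 3.70 ± 0.64 for Slc22a27 (adjusted p 3.36e-07) and 4.37 ± 0.81 for Ly6d (adjusted p 2.27e-06). Each of these genes was highest in the MCD IgG group among the 4 groups. For Ly6d the deposited fold change on MCD stood at the lower end of its range, -5, so its gap is cut short. Its diet ratios were 6.38 under IgG and 1.06 under anti-ACBP.

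On the lower side the gap was -6.75 ± 0.85 for Mup7 (adjusted p 3.96e-13), -6.23 ± 0.88 for Mup19 (1.24e-10), -5.89 ± 0.57 for Mup16 (7.45e-22), -5.67 ± 1.10 for Mup17 (7.43e-06) and -5.12 ± 0.66 for Mup14 (8.01e-13). It was -4.23 ± 0.57 for Mup11 (1.46e-11), -4.05 ± 0.24 for Mup3 (1.07e-60) and -3.69 ± 0.48 for Mup9 (1.23e-12). Serpina1e differed by -5.33 ± 0.37 (1.55e-42) and Ugt2b38 by -5.83 ± 0.82 (1.09e-10). Mup15 did not pass, with -1.72 ± 1.97 and an adjusted p of 0.583. The deposited fold change of Mup19 on MCD stood at the upper end of its range, 5, so its gap is cut short. Mup genes held 10.1% of all normalized counts on chow with IgG and 5.17% with anti-ACBP, against 0.552% on MCD with IgG and 1.94% with anti-ACBP, so the diets stood farther apart under IgG than under anti-ACBP. Over all genes tested, 3394 of 14607 differed.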

How the results depend on the processing

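Of the 111 genes run under the alternatives, none past 1 changed sign. That outcome was set in advance, since the other centrings moved each ratio by at most 0.39. Ratios of 66 genes moved by more than their derived SE under scaling to column totals, and of 39 without centring. The same held for 10 genes when centred on housekeeping genes and for 15 with 10 normalized counts added. The count of higher genes was 1135 and of lower genes 467; scaling to column totals gave 1945 and 268, a filter at 1 CPM 2088 and 751, and a filter at 5 CPM in both columns 383 higher and 367 lower genes. A filter at 20 CPM gave 422 higher. Scaling to column totals moved every ratio up by 0.39, and the filters changed which genes were counted. The filter at 5 CPM in both columns leaves out genes that passed on 1 diet alone. The remaining settings stayed within 1.5 times, at 1086 to 1539 higher and 321 to 469 lower; the centring over the mean of all libraries (1134 and 469) was chosen after seeing the data. List medians changed sign for 15 lists under scaling to column totals, 8 without centring and 3 when centred on housekeeping genes. The difference between antibodies passed for 3394 genes, for 3387 without genes at the ends of the fold change column, and for 2203 among genes at 5 CPM in both IgG columns, where fewer genes were tested. No paired analysis was possible because the tables give group means only; leaving out each replicate was not run for the same reason. Ratios of genes near the floor of 3 normalized counts depend on that floor, and the chow mean rests on 4 libraries.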

Other observations

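Most clock genes lay within 1 of the median gene in the IgG comparison. Of 18 genes 0 were higher and 3 (16.7%) lower by 1 or more, against 4.46% lower over all genes. Their median of -0.23 turns to 0.17 under scaling to column totals. The lower ones were Nfil3 (-1.75 ± 0.25), Arntl (-1.07 ± 0.43) and Nr1d1 (-1.05 ± 0.34); Arntl is within 1 at -0.83 without centring, -0.67 under scaling to column totals and -0.94 when centred on housekeeping genes. In the same list, Per1 stood at 0.46 ± 0.15, Per2 at 0.76 ± 0.27 and Dbp at 4982 against 4919 (-0.22 ± 0.31). The labels give no hour of collection. Of 13 fasting and glucocorticoid genes 4 were higher by 1 or more, Igfbp1 (2.99), Sgk1 (1.61 ± 0.15), Fkbp5 (1.26 ± 0.23) and Ppargc1a (1.19 ± 0.22), against Tsc22d3, a glucocorticoid target, at -0.84 ± 0.34. Of 17 genes of hormones secreted by the liver 5 were higher by 1 or more; beyond Fgf21, Hgf and Gdf15 these were Lect2 (1.24 ± 0.10) and Inhbe (1.04 ± 0.22), whereas Enho, which encodes adropin, was lower (-1.18 ± 0.27) and stood at 1.45 under anti-ACBP.

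Some processed pseudogenes had counts in both MCD groups and none in either chow group. Diet and any other difference between the separately scaled data of the 2 diets cannot be told apart here. Rpl10a-ps1 averaged 499 and 489.8 normalized counts in MCD IgG and MCD anti-ACBP, Rps23-ps1 133 and 381 and Tpt1-ps3 691 and 725, and all were listed at 0 in both chow groups. Serpina4-ps1 averaged 2.47 in MCD IgG against 5322 in chow IgG, a log2 ratio of -11.03 against the floor, below every named gene of the report, and 2964 in MCD anti-ACBP. Muscle genes outside the marker list were high in the same column as Myh4: Pvalb averaged 91.8 in chow IgG and at most 0.96 in the other groups, and Atp2a1 averaged 76.8 and at most 4.46. Mup20, a male-biased urinary protein that acts as a pheromone, averaged 71151 against 387921 (-2.68 ± 0.24).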
